A study of Mus musculus with 4 samples.

Results

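Of 532 known miRNAs in the serum exosome table, 34 had at least 10 reads in 1 serum library and no entry in the table of exosomes from the small intestinal epithelium (SI-Exos). They were chosen by 2 measured values, the read count in the serum libraries and the absence of the name from the SI-Exos table used here, so neither their low SI-Exos level nor the size of their serum count is a finding. The 34 are set beside 202 other known miRNAs with at least 10 serum reads that the SI-Exos table does list. Another 2 names missing from the SI-Exos table, miR-199a-3p and miR-122-3p, were left out by name. The libraries came from male C57BL/6J mice on standard chow, aged 3 months or 18 months. Exosomes were collected by ultracentrifugation from the small intestinal epithelium and from serum, with 1 small RNA library for each source and age, 4 in all. No replicate check is possible for any difference below, and the sources do not say whether a library pooled several mice.

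A miRNA is cut from a hairpin precursor, which can yield a mature strand from its 5′ arm (5p) and from its 3′ arm (3p), and the seed, bases 2 to 8, selects the messenger RNAs that the strand represses. Exosomes are small vesicles that carry miRNAs out of cells. Those in serum come from many tissues and can be isolated together with other carriers of RNA, whereas a preparation of the intestinal epithelium samples chiefly that tissue. Fewer vesicles from a source and fewer copies in each vesicle cannot be told apart in these data.

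Mature sequences are shown for the members on which the results turn, with the seed in capitals. The Sfmbt2 cluster, 6 of the 34, is shown first, with the 3 cluster miRNAs of the SI-Exos table that lie within 2 substitutions of a member, because most of these strands differ little. All sequences are those of the deposited annotation, and those with an entry in RefSeq (GRCm38.p6) matched it exactly for the members.
miR-467c-5p: uAAGUGCGugcauguauaugug
miR-467a-5p (in SI-Exos): uAAGUGCCugcauguauaugcg
miR-467d-5p (in SI-Exos): uAAGUGCGcgcauguauaugcg
miR-467e-5p: aUAAGUGUgagcauguauaugu
miR-669b-5p: aGUUUUGUgugcaugugcaugu
miR-669c-5p: aUAGUUGUguguggaugugugu
miR-669d-5p: aCUUGUGUgugcauguauaugu
miR-669f-5p: aGUUGUGUgugcaugugcaugugu
miR-669l-5p (in SI-Exos): aGUUGUGUgugcauguauaugu
The next sequences belong to members of high level or called between the ages, with miR-1843b-5p added as the near copy of miR-1843a-5p. miR-122b-5p, which was called too, is not shown.
miR-223-5p: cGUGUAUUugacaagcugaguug
miR-1843a-5p: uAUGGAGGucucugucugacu
miR-1843b-5p: aUGGAGGUcucugucugacuu
miR-296-5p: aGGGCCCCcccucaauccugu
miR-434-3p: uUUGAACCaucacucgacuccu
miR-376c-3p: aACAUAGAggaaauuucacgu
miR-153-3p: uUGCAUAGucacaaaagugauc
miR-193a-5p: uGGGUCUUugcgggcaagauga
miR-339-3p: uGAGCGCCucggcgacagagccg
miR-17-3p: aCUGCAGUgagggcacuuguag
miR-1306-3p: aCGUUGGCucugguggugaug
The last group shows members beside the miRNA of the SI-Exos table that they resemble, or whose hairpin they lie opposite.
miR-148b-3p: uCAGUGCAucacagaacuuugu
miR-148a-3p (in SI-Exos): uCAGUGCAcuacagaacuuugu
miR-135a-5p: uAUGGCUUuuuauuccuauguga
miR-135b-5p (in SI-Exos): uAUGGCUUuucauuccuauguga
miR-130b-3p: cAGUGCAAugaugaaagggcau
miR-130a-3p (in SI-Exos): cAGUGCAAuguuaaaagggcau
miR-3074-2-3p: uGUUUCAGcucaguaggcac
miR-24-2-5p (in SI-Exos): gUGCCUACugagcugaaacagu
miR-3074-1-3p: gAUAUCAGcucaguaggcaccg
miR-24-1-5p (in SI-Exos): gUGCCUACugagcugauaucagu

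The libraries held 832002 miRNA reads at 3 months and 778237 at 18 months in serum exosomes, against 212215 and 71353 in SI-Exos. Counts were scaled to the miRNA reads of a library, as CPM, so that 1 read was 1.20 and 1.28 CPM in the serum libraries and 4.71 and 14.0 CPM in the SI-Exos libraries. As a check of the sources, miR-451a of erythrocytes stood at 215611 and 525476 CPM in serum exosomes at 3 and 18 months and at 6277 and 37055 CPM in SI-Exos, and miR-194-5p of the intestinal epithelium at 143 and 105 CPM in serum exosomes and 30950 and 19116 CPM in SI-Exos. Both markers followed the labelled source, as did miR-486a-5p and miR-16-5p of blood and miR-192-5p of the intestinal epithelium at both ages. miR-200b-3p, another epithelial miRNA, had 381 reads in SI-Exos at 3 months and 0 at 18 months, beside 14 and 35 in serum exosomes. At 18 months it was thus higher in serum (45.0 CPM), and the older SI-Exos library lacked a marker of its labelled tissue.

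The members were rare. Together they took 787 of the serum miRNA reads at 3 months, which is 0.0946% (exact Clopper-Pearson 95% interval 0.0881 to 0.101%), and 720 at 18 months, which is 0.0925% (0.0859 to 0.0995%). The intervals of the 2 ages overlapped. Intervals here and below cover counting error only, since reads amplified by PCR without molecular identifiers are not independent molecules. The larger of the 2 serum counts ran from 10 to 125 reads with a median of 15, where the 202 other known miRNAs had a median of 144 and a maximum of 408945. Among the members 7 reached 50 reads in 1 library and 20 stayed under 20 reads.

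miR-223-5p, from a hairpin known for its high expression in myeloid cells, was the most abundant member, with 114 reads (137 CPM) at 3 months and 125 reads (161 CPM) at 18 months. miR-1843a-5p followed with 113 reads (136 CPM) and 47 reads (60.4 CPM). Its hairpin lies in an intron of Dcaf5 and overlaps an annotated small Cajal body RNA, Scarna3b, so reads of that RNA and of the miRNA may not be told apart. In the Sfmbt2 cluster miR-467c-5p had 46 and 74 reads (55.3 and 95.1 CPM) and miR-467e-5p had 41 and 51 reads (49.3 and 65.5 CPM). miR-3074-2-3p, whose hairpin lies opposite that of miR-24-2, had 38 and 47 reads (45.7 and 60.4 CPM). These 5 members had the highest mean CPM of the 2 serum libraries, and the highest level of any member was 161 CPM.

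**Figure D1:**
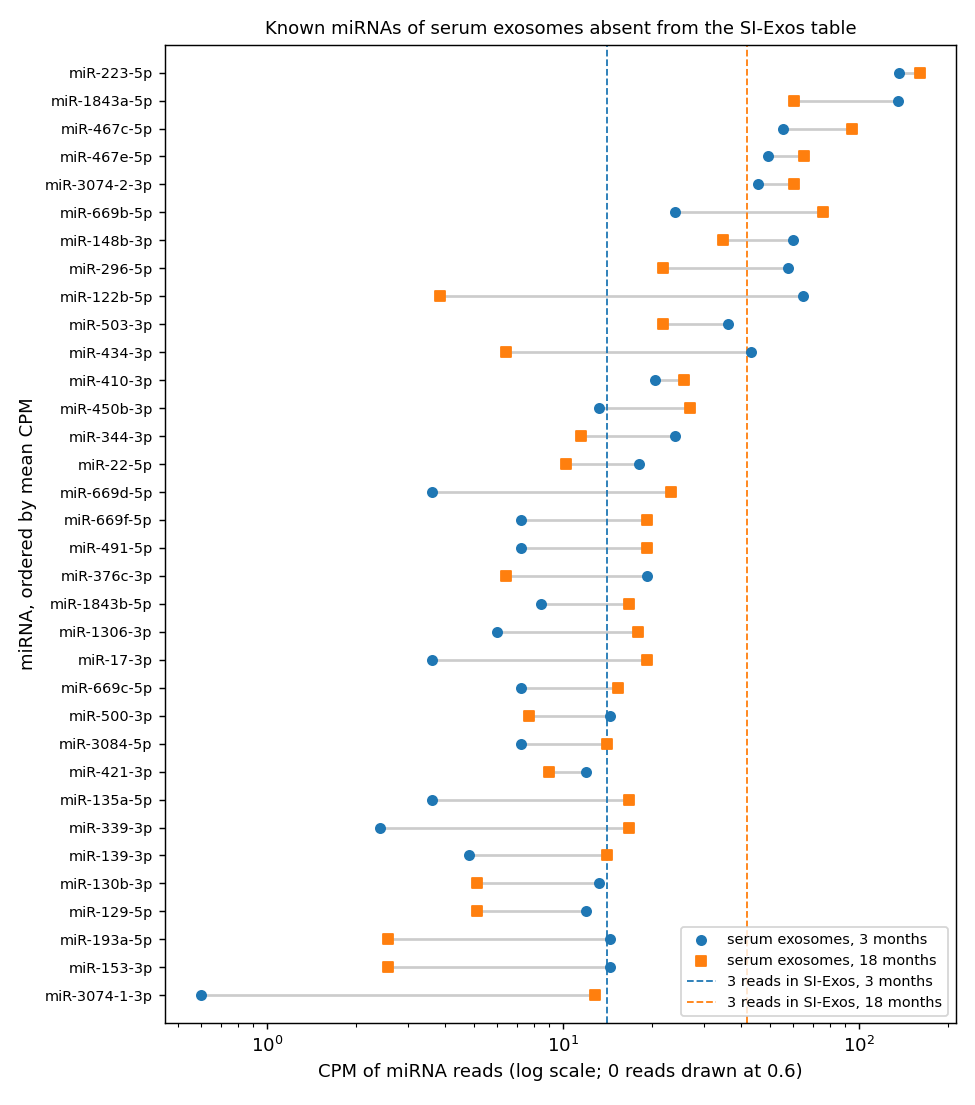
Level of each of the 34 members in serum exosomes at 3 months (circles) and 18 months (squares), in CPM of miRNA reads on a log axis, with dashed lines at the level that 3 reads give in the SI-Exos library of each age. At 3 months 18 circles lie above the SI-Exos line of 14.1 CPM, and at 18 months 6 squares lie above the line of 42.0 CPM.

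The depth of the SI-Exos libraries limits what the absence of a name can show. Every row of the SI-Exos table had at least 1 read over its 2 libraries, so a missing name is taken here as no read in either. This could not be checked for names that the table used here does not hold. A level of 3 reads, taken as the floor, was 14.1 CPM in SI-Exos at 3 months and 42.0 CPM at 18 months. At 3 months 18 members had a serum level above the SI-Exos floor, and at 18 months 6 had, all of which were also above it at 3 months. The 6 were miR-223-5p, miR-1843a-5p, miR-467c-5p, miR-467e-5p, miR-3074-2-3p and miR-669b-5p. A level in SI-Exos equal to that in serum would have been detectable for these. For 16 members the serum level was under the floor at both ages, so that a difference between the sources was not detectable at this depth. The serum level of miR-223-5p was 9.69-fold the floor at 3 months and 3.82-fold at 18 months, the widest margin of any member at each age. miR-1843a-5p came next at 3 months with 9.61-fold, and miR-467c-5p at 18 months with 2.26-fold. At equal CPM, miR-223-5p would have given 29.1 reads in SI-Exos at 3 months and 11.5 at 18 months. On the scale of the authors' RPM, which divides by a library total far above the miRNA reads, 32 members lay above the SI-Exos floor at each age. The 2 scales differ because miRNA reads were 1.14% and 0.411% of that total in SI-Exos and 5.89% and 5.31% in serum exosomes.

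Absence from the SI-Exos table went with a low serum count. Among known miRNAs with 10 to 19 reads in the higher serum library, 20 of 51 (39.2%) were missing from the SI-Exos table, against 7 of 41 (17.1%) with 20 to 49 reads and 7 of 42 (16.7%) with 50 to 129 reads. None of the 55 with 130 to 999 reads and none of the 47 with 1000 reads or more was missing. These shares, with the zeros, leave out miR-199a-3p, which is missing from the SI-Exos table too. The edge of 130 reads lies just above the largest member count of 125, so the empty upper groups depend on its place. The rule sets the lower bound of 10 reads but not this fall, which is a description across miRNAs and has no test.

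**Figure D2:**
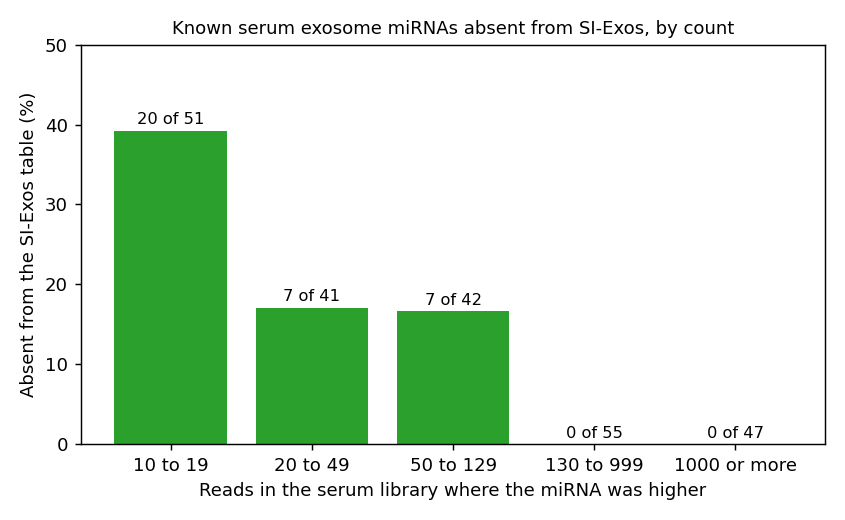
Share of known serum exosome miRNAs that were missing from the SI-Exos table (bars, in percent, axis from 0), by the reads in the serum library where the miRNA was higher. Without miR-199a-3p, the share was 39.2% at 10 to 19 reads and 0 above 129 reads, and the label on each bar gives the number missing of the number known.

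To compare the ages within serum exosomes, the CPM ratio of 3 months to 18 months came with an exact 95% interval for counting error. A call needed a ratio of 2-fold or more (or no reads at 1 age) together with an interval that did not hold 1. By this rule 7 members (20.6%) were higher at 3 months, 7 (20.6%) were lower, and 20 were not called. Of all 251 measured serum miRNAs, 18.3% were called higher and 25.9% lower, and of the 98 other known miRNAs whose larger count fell in the members' range, 13.3% were called higher and 26.5% lower. Because membership required 10 reads in the higher library, a member with few reads in the other library had to differ, and nothing is read from these shares. The median log2 ratio, with 0.5 counts added, was -0.36 over the members, -0.38 over all measured serum miRNAs and -0.39 over the 98. When the totals left out the 5 most abundant miRNAs, the split became 10 higher and 5 lower among the members and 67 higher and 38 lower among the 251, in place of 46 and 65. All log2 ratios moved up by 0.39, and the median of the members came to 0.029. Of the 11 members with at least 10 reads at both ages, 2 were called higher and 1 lower. Of the 11 that reached 10 reads at 3 months alone, 5 were called higher, and of the 12 that did so at 18 months alone, 6 were called lower.

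**Figure D3:**
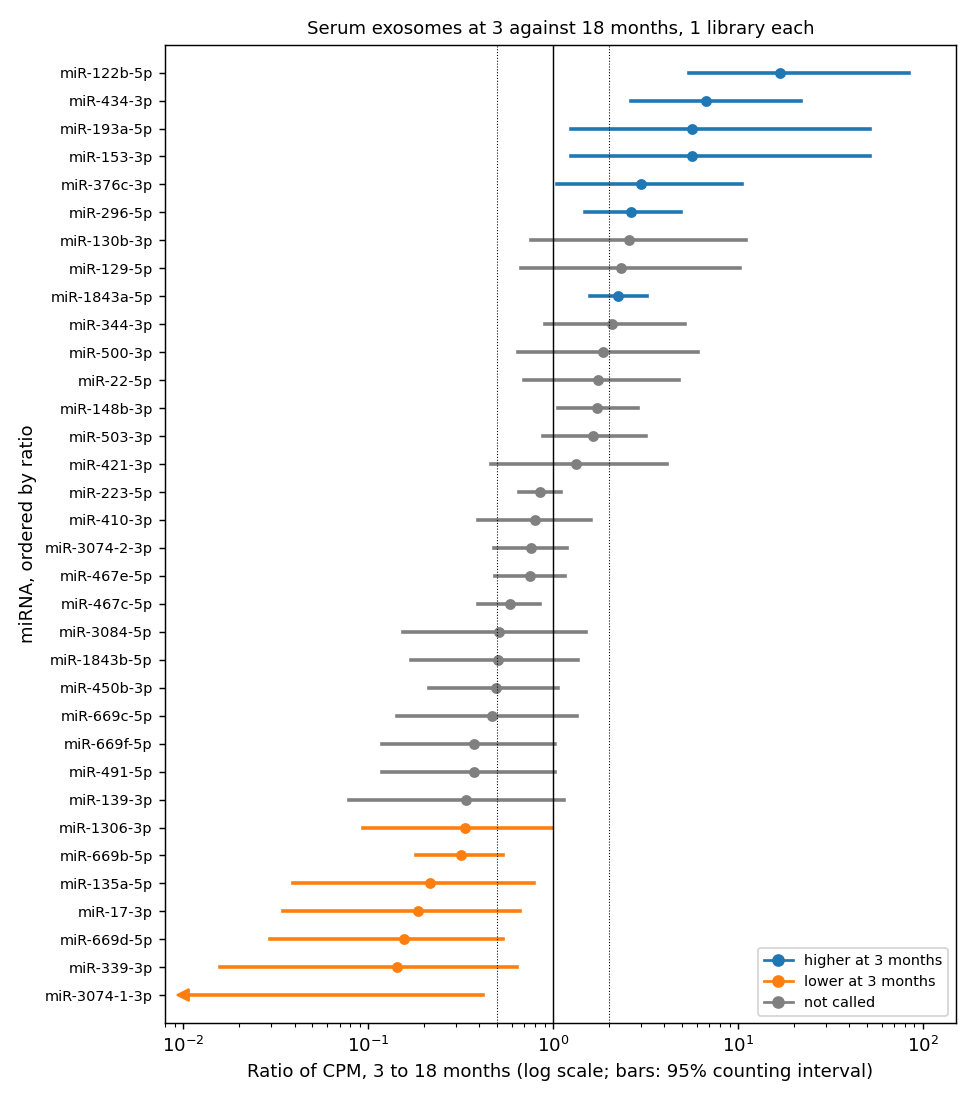
Ratio of CPM at 3 months to 18 months for the 34 members on a log axis, with bars for the exact 95% counting interval, dotted lines at 0.5 and 2, and color for the call. The 7 members called higher have ratios from 2.25 to 16.8, and the arrow marks miR-3074-1-3p, which had 0 reads at 3 months (bars are cut at the edge of the axis).

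Among the members called higher, miR-122b-5p had 54 reads (64.9 CPM) at 3 months and 3 reads (3.85 CPM) at 18 months, a ratio of 16.8 (95% interval 5.46 to 84.2). It is the reverse complement of miR-122-3p over 21 bases, from the hairpin of the liver miRNA miR-122. miR-434-3p, from the imprinted Dlk1-Dio3 region, had 36 and 5 reads (43.3 and 6.42 CPM), a ratio of 6.73 (2.63 to 22.0). Both were at 3 months among the better covered members and at 18 months near the floor of 3 reads. miR-296-5p had 48 and 17 reads (57.7 and 21.8 CPM), a ratio of 2.64 (1.49 to 4.90), and miR-1843a-5p had a ratio of 2.25 (1.59 to 3.23). These last 2 had at least 10 reads at each age. The other 3 rested on fewer reads. miR-376c-3p, also of the Dlk1-Dio3 region, had 16 and 5 reads, a ratio of 2.99 (1.05 to 10.4). miR-153-3p, a brain miRNA, and miR-193a-5p both had 12 reads at 3 months and 2 at 18 months, a ratio of 5.61 (1.25 to 51.6).

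Among the members called lower at 3 months, miR-669b-5p of the Sfmbt2 cluster was the most abundant, with 20 reads (24.0 CPM) at 3 months and 59 (75.8 CPM) at 18 months, 3.15-fold lower at 3 months (interval 1.87 to 5.53). miR-669d-5p of the same cluster had 3 and 18 reads and was 6.41-fold lower (1.87 to 34.0). The rest had 5 reads or fewer at 3 months. miR-339-3p had 2 and 13 reads, 6.95-fold lower (1.57 to 63.4). miR-17-3p, the 3p strand of the first hairpin of the miR-17 cluster, had 3 and 15 reads, 5.35-fold lower (1.51 to 28.8). miR-135a-5p had 3 and 13 reads, 4.63-fold lower (1.27 to 25.3), a call that was lost when the totals left out the 5 most abundant miRNAs. Each of these 3 had an interval whose upper limit exceeded 20-fold. miR-1306-3p, whose hairpin lies in an exon of Dgcr8, the gene of the hairpin-binding partner of Drosha, had 5 and 14 reads, 2.99-fold lower (1.02 to 10.6), and it was not called under any of the other 4 scalings. miR-3074-1-3p had 0 and 10 reads, 3.56-fold lower when the floor of 3 reads stood for the 0 at 3 months. That value leaves out the counting error of the 10 reads. By its exact interval, miR-3074-1-3p was at least 2.40-fold lower. It was the only member with 0 reads in a serum library.

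The Sfmbt2 cluster supplied 6 members, the most of any of the 17 lists of miRNAs by tissue, cluster or family. Its hairpins lie in an intron of Sfmbt2, an imprinted gene of the Polycomb group, and the cluster is known for its expression in the placenta. On chromosome 2 (GRCm38, plus strand) the hairpins of miR-669f (chr2:10467229-10467349), miR-669b (chr2:10467790-10467886), miR-669d (first copy chr2:10468343-10468463) and miR-467c (chr2:10473931-10474027) lie within 10 kb of each other. Those of miR-467e (chr2:10505721-10505807) and miR-669c (chr2:10509296-10509404) form a second group. Besides the values above, miR-669f-5p had 6 and 15 reads at 3 and 18 months, and miR-669c-5p had 6 and 12. All 6 members had a ratio below 1, also under the 4 other scalings, and 2 were called lower. For miR-669c-5p, miR-669d-5p and miR-669f-5p, which reached 10 reads at 18 months alone, the rule for members set a ratio below 1. miR-467c-5p, miR-467e-5p and miR-669b-5p had at least 10 reads at each age, so their direction was not set by it. miR-467c-5p was 1.72-fold lower (1.17 to 2.54), an interval without 1 but under 2-fold, and miR-467e-5p was 1.33-fold lower (0.864 to 2.06).

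Summed, the 6 members had 122 reads (147 CPM) at 3 months and 229 reads (294 CPM) at 18 months, a ratio of 0.498 (0.397 to 0.623). The 6 other measured miRNAs of the cluster in serum, which the SI-Exos table does list, had 119 and 245 reads, a ratio of 0.454 (0.362 to 0.568). Members and other miRNAs of the cluster thus had the same direction and overlapping intervals. The sum of the members includes miR-669c-5p, miR-669d-5p and miR-669f-5p, whose direction was set by the rule. Over the list, 0 of 12 were called higher and 5 lower. Of those called lower, miR-669d-5p and miR-297c-5p (2 and 16 reads) were measured through the library of 18 months alone. The share of members called in this cluster is 2 of 6, beside the 25.9% of all measured serum miRNAs. The cluster as a whole was not missing from SI-Exos at 3 months. The SI-Exos table listed 7 miRNAs of the list, which was matched by name. Of these, miR-466i-5p, a repetitive strand placed in the cluster by its name alone, had 140 reads at 3 months and 154 at 18 months. The other 6 had between 1 and 13 reads at 3 months and 0 at 18 months. miR-466i-5p was also among the 6 other measured miRNAs in serum. In CPM, the list stood at 801 and 2158 in SI-Exos against 319 and 678 in serum exosomes, but this order rested on miR-466i-5p. Without that strand, left out after its counts were seen, SI-Exos held 30 reads (141 CPM) at 3 months and 0 at 18 months, and serum exosomes 257 and 517 reads (309 and 664 CPM). Because the strands are alike (miR-669b-5p and miR-669f-5p differ by 1 substitution over their shared length, and miR-669d-5p and miR-669l-5p by 1), the assignment of reads to single names in this cluster is uncertain.

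The Dlk1-Dio3 region, an imprinted domain whose miRNAs are expressed from the maternal chromosome, gave 3 members. miR-434-3p (chr12:109594506-109594599, opposite an exon of Rtl1) and miR-376c-3p (chr12:109722718-109722803) were called higher at 3 months, as above. miR-410-3p (chr12:109743715-109743795, in an exon of the noncoding RNA Mirg) had 17 and 20 reads (20.4 and 25.7 CPM), a ratio of 0.795 (0.391 to 1.60) that rose to 1.04 when the totals left out the 5 most abundant miRNAs. Of the 14 miRNAs of the region measured in serum exosomes, 7 were called higher at 3 months and 0 lower, beside 18.3% and 25.9% of all measured. Of these 7, miR-434-3p, miR-376c-3p and miR-134-5p (13 and 0 reads) were measured through the library of 3 months alone, which set their direction. The others called, miR-154-5p, miR-379-5p, miR-382-5p and miR-411-5p, had at least 10 reads at each age. The 11 that the SI-Exos table lists had 1300 reads at 3 months and 471 at 18 months in serum, a ratio of 2.58 (2.32 to 2.87), and the 3 members had 69 and 30, a ratio of 2.15 (1.38 to 3.42). The intervals of both sums overlapped, but the sum of the members includes miR-434-3p and miR-376c-3p, whose direction was set by the rule. SI-Exos held 1869 reads of the region at 3 months and 235 at 18 months, 8807 and 3293 CPM. Most of these came from miR-411-5p (807 and 136 reads), miR-127-3p (659 and 54) and miR-379-5p (302 and 8). Only 7 miRNAs of the region had at least 10 reads in an SI-Exos library, so few reads there were common in the region.

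**Figure D4:**
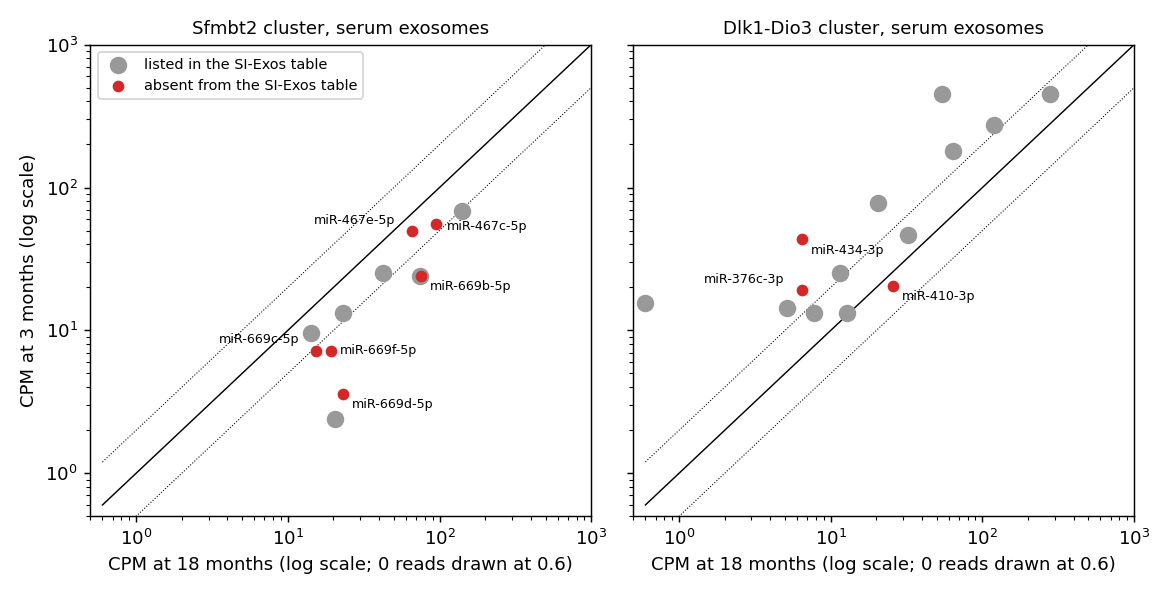
CPM in serum exosomes at 18 months (horizontal) against 3 months (vertical), both on log axes, for the measured miRNAs of the Sfmbt2 cluster (left, 12) and the Dlk1-Dio3 region (right, 14), with the line of equality and dotted lines at 2-fold. Red points are members and grey points are miRNAs that the SI-Exos table lists. In the Sfmbt2 panel the 12 points lie below the line of equality, and in the Dlk1-Dio3 panel 1 member, miR-410-3p, lies below it.

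Of the 4 other lists with a member, the brain list had miR-153-3p, given above, and miR-129-5p with 10 and 4 reads, a ratio of 2.34 (0.674 to 10.2). The 4 other brain miRNAs measured in serum, which the SI-Exos table lists, had 537 and 629 reads, a ratio of 0.799 (0.710 to 0.897). Of these reads miR-128-3p held 502 and 551, and 0 of the 4 were called higher and 1 lower. Both members reached 10 reads at 3 months alone, so the rule set their ratios above 1, and nothing is read from the contrast. The list of myeloid and lymphoid miRNAs had miR-223-5p, whose ratio was 0.853 (0.656 to 1.11) and 1.12 under the same change of totals. The families of the miR-17 cluster had miR-17-3p. The list of anti-adipogenic miRNAs had miR-130b-3p, which is described as a repressor of adipocyte differentiation, with 11 and 4 reads and a ratio of 2.57 (0.762 to 11.1). It too reached 10 reads at 3 months alone. Of the 7 others of that list measured in serum, 2 were called higher and 3 lower, and their log2 ratios had a median of -0.79. The remaining 11 lists held no member, among them the erythroid, striated muscle, epithelial, let-7 and pro-adipogenic lists.

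For 10 members (29.4%) the SI-Exos table listed the opposite arm of the same hairpin, against 89 of 199 (44.7%) of the other known miRNAs with a sequence. The others had higher serum counts and are listed in SI-Exos by definition, so these shares are not matched for level. The opposite arm of miR-223-5p, miR-223-3p, had 473 and 2255 reads in serum exosomes at 3 and 18 months, 5.10-fold lower at 3 months (4.61 to 5.64), and 4 and 19 reads in SI-Exos. The 5p strand thus made up 19.4% of the reads of this hairpin in serum at 3 months (16.3 to 22.9%) and 5.25% at 18 months (4.39 to 6.23%). The 2 strands of the hairpin differed in their change between the libraries, with intervals of the share that did not overlap. In SI-Exos the 3p strand was itself rare.

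miR-22-5p and miR-139-3p were the minor strand of an abundant hairpin. miR-22-5p had 15 and 8 reads, beside 46992 and 12134 reads of miR-22-3p in serum and 2135 and 1038 in SI-Exos. miR-139-3p had 4 and 11 reads, beside 744 and 1586 of miR-139-5p in serum and 133 and 11 in SI-Exos. In both hairpins the member made up less than 1% of the serum reads at each age. miR-17-3p had 3 and 15 reads beside 34 and 64 of miR-17-5p in serum, which had 10 and 1 in SI-Exos. Here too the member was the rarer strand, of a hairpin with fewer reads. For miR-339-3p, with 2 and 13 reads, the 5p strand had 10 and 12 reads in serum and 3 and 1 in SI-Exos. For miR-193a-5p, with 12 and 2 reads, the 3p strand had 10 and 2 in serum and 1 and 3 in SI-Exos. In both of these hairpins the strands had similar counts in at least 1 serum library.

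For 4 hairpins the strand listed in SI-Exos was itself rare or missing in serum. miR-296-5p had 48 and 17 reads in serum exosomes, where miR-296-3p had 2 and 0, whereas SI-Exos held 12 and 0 reads of miR-296-3p. miR-153-3p had 12 and 2 reads in serum, with no entry for miR-153-5p there, and SI-Exos held 0 and 15 reads of miR-153-5p. miR-129-5p had 10 and 4 reads in serum, where miR-129-2-3p had 0 and 2, and SI-Exos held 6 and 0 reads of miR-129-2-3p. In each case the strand seen in SI-Exos had reads in 1 of its 2 libraries. That the member strand is missing there was set by the rule. The serum level of miR-129-5p was under the SI-Exos floor at both ages, so that a lower level of it in SI-Exos was not detectable in either library taken alone. miR-153-3p stood at 1.02-fold the floor at 3 months and under it at 18 months. miR-130b-3p had 11 and 4 reads and miR-130b-5p 2 and 6 in serum, and SI-Exos held 0 and 2 reads of the 5p strand.

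By sequence, the members were 20 to 24 bases long with a median of 22, and their median GC content was 45.5%, the same medians as in the 199 others. Of the 34, 17 were 3p strands, as were 39.2% of the others. A miRNA with the same seed was listed in SI-Exos for 6 members (17.6%) and for 93 of the 199 (46.7%). A miRNA within 2 substitutions was listed there for 6 members (17.6%) and for 61 of the 199 (30.7%). These counts are a description and had no test. As for the opposite arms, the shares are not matched for level, since the others had higher serum counts and are listed in SI-Exos by definition.

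The relatives had the following levels. miR-148b-3p, whose hairpin lies in an intron of Copz1, had 50 and 27 reads in serum (60.1 and 34.7 CPM), a ratio of 1.73 (1.06 to 2.88), which left out 1 but was under 2-fold. Its family members share its seed, and miR-148a-3p had 2124 and 599 reads in serum and 80 and 29 in SI-Exos, and miR-152-3p 46 and 11 in serum and 1 and 2 in SI-Exos. The member was thus outnumbered by miR-148a-3p in serum at both ages. miR-467a-5p, near miR-467c-5p, had 57 and 109 reads in serum and 13 and 0 in SI-Exos. miR-135b-5p, which differs from miR-135a-5p by 1 substitution, had 0 and 2 reads in SI-Exos and none in serum. The serum level of miR-135a-5p was under the SI-Exos floor at both ages. miR-130a-3p, a relative of miR-130b-3p, had 55 and 17 reads in serum and 0 and 1 in SI-Exos. miR-500-3p, encoded in an intron of Clcn5, had 12 and 6 reads, and miR-501-3p, which shares its seed, had 27 and 33 in serum and 1 and 1 in SI-Exos.

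For 4 members the strand was the reverse complement, over at least 16 bases, of another listed miRNA. miR-3074-2-3p matched miR-24-2-5p over 20 bases, which had 31 and 51 reads in serum exosomes and 13 and 0 in SI-Exos. miR-3074-1-3p matched miR-24-1-5p over 20 bases, which had 0 and 0 reads in serum and 4 and 0 in SI-Exos. miR-129-5p matched miR-129b-3p over 20 bases, which had 2 and 1 reads in serum. miR-122b-5p was described above. The sources do not state whether counting used strand, and this was not tested. Without strand, reads of a miRNA and of its antisense partner cannot be told apart. Partner names could have like or very unlike counts. miR-3074-2-3p had 38 and 47 reads in serum beside the 31 and 51 of miR-24-2-5p. In serum, miR-24-3p had 8688 and 4893 reads, where miR-3074-5p, its reverse complement over 20 bases, had 7 and 6. No call was made for miR-3074-2-3p, at 0.756 (0.480 to 1.19).

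In the genome, 33 of the 34 had an annotated hairpin, miR-122b having none, and 27 lay within another gene. Chromosome 2 held 8 members, and chromosomes 12 and X held 5 each. On the X chromosome miR-503-3p (chrX:53053984-53054054, minus strand) had 30 and 17 reads, a ratio of 1.65 (0.882 to 3.19), and its neighbor miR-450b-3p (chrX:53047997-53048078) had 11 and 21, a ratio of 0.490 (0.213 to 1.06). These neighbors of 1 cluster had ratios on opposite sides of 1, and neither was called. miR-322-5p of the same cluster had 192 and 366 reads in serum and 7 and 0 in SI-Exos, while miR-322-3p, with 8 and 3, and miR-351-5p, with 8 and 6, fell just short of 10 reads and were also missing from SI-Exos. miR-421-3p, encoded in an intron of Ftx, a noncoding RNA of the X inactivation center, had 10 and 7 reads, a ratio of 1.34 (0.459 to 4.14), while its neighbor miR-374b-5p had 376 and 447 in serum and 178 and 4 in SI-Exos.

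Another 4 members were not called. miR-344-3p had 20 and 9 reads, a ratio of 2.08 (0.905 to 5.18). miR-491-5p, encoded in an intron of Focad, had 6 and 15 reads, a ratio of 0.374 (0.119 to 1.02). For both, the ratio passed 2-fold while the interval held 1. miR-1843b-5p, which shares a run of 20 bases with miR-1843a-5p shifted by 1 position, had 7 and 13 reads, a ratio of 0.504 (0.170 to 1.36), and reads of these 2 names may be split uncertainly. miR-3084-5p had 6 and 11 reads, a ratio of 0.510 (0.155 to 1.505). The ratios of miR-22-5p, 1.75 (0.698 to 4.78), miR-500-3p, 1.87 (0.650 to 6.08), and miR-139-3p, 0.340 (0.0790 to 1.15), were not called either.

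At the threshold, 6 members had 10 or 11 reads in the higher library, namely miR-129-5p, miR-130b-3p, miR-139-3p, miR-3074-1-3p, miR-3084-5p and miR-421-3p. Just outside it, 9 known miRNAs missing from SI-Exos had 8 or 9 reads. Among these, miR-376a-3p and miR-543-5p of the Dlk1-Dio3 region each had 9 reads at 3 months and 0 at 18 months, and let-7f-2-3p had 8 and 5. A further 213 known names missing from SI-Exos had fewer than 8.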

How the data were processed

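Small RNA libraries of exosomes from the small intestinal epithelium (SI-Exos) and from serum of male C57BL/6J mice were analysed at 3 and 18 months, with 1 library per source and age. The authors counted reads of each mature miRNA and deposited read counts and RPM, reads per library total, where that total exceeds the miRNA reads (estimated here as 18606950 and 17369766 for SI-Exos and 14129502 and 14649688 for serum). The submitters' processing notes name Bowtie2 2.2.9 with the build GRCm38. Its settings were not stated. The labels name an MGI kit and platform, where the paper's methods for SI-Exos name another kit. The deposited columns of fold change, p-value and FDR, which hold the authors' own comparison of the ages, were not used. Groups came from the labels, and 0 columns remained unmatched.

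Counts were scaled to CPM of miRNA reads. Ratios of 3 to 18 months carry a 95% Clopper-Pearson interval, taken on the share of both counts that fell at 3 months. A call required 10 reads or more at 1 age, a ratio of at least 2 (or no reads at 1 age) and an interval that excluded 1. Log2 ratios had 0.5 counts added. A floor of 3 counts stood for 0 in bounds, which carry no counting error of the larger count. No p-value was made, since intervals compare 2 libraries and not ages. The calling rule was tested on simulated data. Precision is limited by depth: 1 read is 1.20 and 1.28 CPM in serum and 4.71 and 14.0 CPM in SI-Exos.

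The members and the 17 lists were chosen with earlier results of these data known. Named members were the 15 with the highest mean CPM, up to 10 called in each direction by the interval bound, those on a list, in a cluster (10 kb) or within 2 substitutions of a SI-Exos miRNA, and those at the threshold. The remaining members are named so that all are accounted for, and their relatives, opposite arms and neighbors were taken with them. Opposite arms and lists were matched by name, seeds (bases 2 to 8) and substitutions (aligned at the 5′ end) by the deposited mature sequence. Of the 202 other known miRNAs, 199 have one. Positions came from the GENCODE vM21 annotation of GRCm38. Sequences were compared with RefSeq (GRCm38.p6). Alternatives were TMM factors (edgeR 4.0.16), size factors (DESeq2 1.42.0), the authors' RPM, totals without the 5 most abundant miRNAs, other minimums, ratios and floors, no interval rule, summed names and 2 added counts. The computation ran in R 4.3.3 and Python 3.11.15 (matplotlib 3.10.9, scipy 1.17.1, numpy 2.4.6, pandas 2.3.3).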

Additional observations from a re-analysis of the deposited data

How the results depend on the processing

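Each age has 1 library, so no result has a replicate check, and counts near 10 set wide intervals. Of 170 comparisons of a member's ratio with its value under an alternative (34 members, 5 alternatives), 5 lost a call and 5 gained one. Another 158 stayed on their side of 1 with no change of call recorded. These include all 34 with 2 counts added, where no call was remade and each ratio was only checked against its unchanged counting interval. The other 2, neither of them called, crossed 1 with totals without the 5 most abundant miRNAs, miR-223-5p (0.853 to 1.12) and miR-410-3p (0.795 to 1.04). Calls were lost by miR-1306-3p under all 4 scalings and by miR-135a-5p when the totals left out the 5 most abundant miRNAs, and gained by miR-344-3p under 3 scalings and by miR-148b-3p and miR-503-3p under those totals. Members called higher numbered 7 to 10 and lower 5 to 7 under the scalings, where 46 to 67 of all 251 measured were higher and 38 to 65 lower. They were 2 and 1 with at least 50 reads, 4 higher with a ratio of at least 4, 2 lower with at least 20 summed reads and 12 lower with no interval rule, by construction of these rules. The median log2 ratio of -0.36 became -0.17 with TMM, -0.21 with the authors' RPM and -0.23 with at least 50 reads, and turned to 0.029 with totals without the 5 most abundant, which moved the log2 ratios of all serum miRNAs by 0.39 (TMM 0.19, RPM 0.15, DESeq2 0.10). With at least 1 read there were 256 members with 0.138% and 0.134% of serum miRNA reads at 3 and 18 months, and with at least 50 reads 7 members with 0.0526% and 0.0496%. Of the library total behind the RPM, the 34 took 0.00557% and 0.00491%. Members above the SI-Exos floor numbered 29 and 22 with a floor of 1 count, 7 and 1 with 10 counts, and 32 and 32 by RPM. At the SI-Exos depth 28.8 and 22.5 members would be expected with at least 1 read if levels equalled those in serum. Leaving miR-466i-5p out of the Sfmbt2 cluster, chosen after seeing the data, took its CPM in SI-Exos from 801 to 141 and from 2158 to 0. The names share no mature sequence, so summing names changed nothing. No paired analysis was possible because the comparisons have 1 library in each group and the values come from no test.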

Other observations

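The reverse set was chosen after its values were seen. Its size cannot be set against that of the 34, because the libraries differ in depth. In SI-Exos 1 read was 4.71 and 14.0 CPM at 3 and 18 months, against 1.20 and 1.28 CPM in serum. Of 181 known miRNAs with at least 10 reads in an SI-Exos library, 13 were missing from the serum table used here. miR-7b-5p had 312 reads in SI-Exos at 3 months and 0 at 18 months, miR-1224-5p had 0 and 64, and miR-141-5p, the minor strand of an epithelial hairpin, had 53 and 152. miR-200b-5p (15 and 0), miR-200c-5p (10 and 0) and miR-182-3p (11 and 0) also come from hairpins of the epithelial list. Except for miR-141-5p, each of the 13 had at most 1 read in the SI-Exos library where it was lower, so these names rest on 1 library.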
